A study of Mus musculus with 4 samples.

Results

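9 genes of 31053 measured were examined in efferocytic and non-efferocytic bone marrow (BM) macrophages: the secreted matricellular genes Thbs1, Ctgf and Cyr61, and the contractile genes Tagln, Acta2, Myl9, Tpm1, Tpm2 and Cnn1. The 9 genes were taken by symbol from the deposited count matrices. They were selected because earlier results of these data gave lower levels in efferocytic cells, so their levels in that contrast are given here as a description, with no test. What the selection did not use is where in the sort the transcripts lay, which is followed below in cells with and without collagen transcripts. A collagen-high cell is a barcode with 10 or more summed unique molecular identifiers (UMIs, the counted transcript molecules) of Col1a1, Col1a2 and Col3a1, the fibrillar collagen genes of fibroblasts. There were 135 such cells among 36794 cells, a cell being a barcode with at least 1000 UMIs, at least 200 detected genes and at most 10% mitochondrial UMIs.

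BM macrophages were grown from the marrow of male C57BL/6J mice in the presence of M-CSF for 4 days. The mice were aged 4–6 weeks per the methods and 4 weeks per the paper's caption for the single-cell work. RM1, a mouse prostate cancer line made with Ras and Myc, was killed with UV light, labeled with the dye CFSE and given to the macrophages for 16–18 h. Sorted F4/80+CFSE+ cells were called efferocytic, and F4/80+ cells of cultures without RM1 were called non-efferocytic. Each of 2 experiments gave 1 library of each group, prepared with a 10X Genomics 3′ kit. The experiments are described as independent. Per the methods, work with BM macrophages in general used at least 3 mice per group, but neither they nor the labels say which mice went into which library. The p-values of the main fit therefore weigh a difference only against how far the 2 experiments disagreed on it, with variance estimates shared in part across genes. That spread may be technical in part, and it is not the SD printed beside the means. The comparison asked how taking up apoptotic cancer cells changed macrophage transcripts. The 2 groups differed both in the presence of RM1 cells in the dish and in the CFSE gate, and these cannot be told apart.

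Thrombospondin 1 (Thbs1), CTGF (Ctgf, also called Ccn2) and CYR61 (Cyr61, also called Ccn1) are secreted proteins that sit in the extracellular matrix and bind integrins and other surface receptors. Ctgf and Cyr61 are standard readouts of the coactivators YAP and TAZ, which act with TEAD factors when cells are stretched or spread. The contractile genes encode parts of the actin and myosin apparatus of smooth muscle and myofibroblasts, and many of them are driven by serum response factor (SRF), which binds the CArG box. In bone marrow cultures such transcripts are best known from stromal cells, while Thbs1 is also made by myeloid cells and platelets, where it takes part in the activation of latent TGF-beta and binds CD36 and CD47.

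In the mouse annotation GENCODE vM21 (GRCm38), Thbs1 (ENSMUSG00000040152) lies at chr2:118111876-118127133 on the plus strand, Ctgf (ENSMUSG00000019997) at chr10:24595442-24598683 on the plus strand and Cyr61 (ENSMUSG00000028195) at chr3:145646976-145649981 on the minus strand. Tagln (ENSMUSG00000032085) lies at chr9:45929619-45936058, minus strand, Acta2 (ENSMUSG00000035783) at chr19:34241090-34255590, minus strand, and Myl9 (ENSMUSG00000067818) at chr2:156775420-156781658, plus strand. Tpm1 (ENSMUSG00000032366) lies at chr9:67022590-67049406, minus strand, Tpm2 (ENSMUSG00000028464) at chr4:43514711-43523765, minus strand, and Cnn1 (ENSMUSG00000001349) at chr9:22099216-22109630, plus strand. The genes do not overlap one another.

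Because the genes were lower together, their promoters were read for the letters of both factors. RefSeq promoter sequences (build GRCm38.p6) were matched for 6 of the 9 genes, and Thbs1, Ctgf and Tagln had no entry. Of the 250 bases before the RefSeq start of each gene, 3 of 6 held GGAATG or its reverse complement CATTCC, the core letters bound by TEAD factors. An exact CArG box, searched on both strands as CC, 6 bases of A or T and then GG, was held by 1 of 6. Near matches with another base among those 6, such as ccctatatgg in the Acta2 window, were not counted. Over all 32851 promoters of the same length the shares were 12.6% and 1.47%. The 2 motifs did not overlap in any promoter printed here. The 4 promoters with a match are shown 5′ to 3′ on the gene's strand, with the match in capitals.
Cyr61, chr3:145649986-145650235, minus strand: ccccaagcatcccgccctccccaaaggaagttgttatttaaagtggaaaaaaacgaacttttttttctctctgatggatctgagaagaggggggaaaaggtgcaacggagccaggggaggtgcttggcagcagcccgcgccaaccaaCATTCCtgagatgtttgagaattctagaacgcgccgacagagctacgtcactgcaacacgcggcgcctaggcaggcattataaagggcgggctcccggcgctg
Acta2, chr19:34255374-34255623, minus strand: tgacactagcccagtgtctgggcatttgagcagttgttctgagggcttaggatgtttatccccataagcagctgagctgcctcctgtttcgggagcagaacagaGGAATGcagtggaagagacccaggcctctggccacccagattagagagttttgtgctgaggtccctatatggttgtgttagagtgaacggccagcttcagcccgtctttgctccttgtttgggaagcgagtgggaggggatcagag
Tpm1, chr9:67049214-67049463, minus strand: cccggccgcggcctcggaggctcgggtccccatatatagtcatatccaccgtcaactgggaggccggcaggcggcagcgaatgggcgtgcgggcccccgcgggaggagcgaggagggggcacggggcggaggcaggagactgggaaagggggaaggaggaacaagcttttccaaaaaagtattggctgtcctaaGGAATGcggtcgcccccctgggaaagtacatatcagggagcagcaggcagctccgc
Myl9, chr2:156775214-156775463, plus strand: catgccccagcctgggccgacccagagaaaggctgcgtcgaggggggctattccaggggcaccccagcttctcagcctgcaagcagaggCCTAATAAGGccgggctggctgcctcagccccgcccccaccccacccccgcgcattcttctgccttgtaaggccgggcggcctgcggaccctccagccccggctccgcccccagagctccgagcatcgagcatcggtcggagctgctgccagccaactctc
Counted from the RefSeq start, the match began 103 bases before it in Cyr61, 146 in Acta2 and 56 in Tpm1 (the TEAD letters), and 161 bases before it in Myl9 (the CArG box). The RefSeq starts of Acta2, Myl9, Tpm1, Tpm2 and Cnn1 lie inside the wider GENCODE gene spans given above, so these windows reach into those spans. A match is a description of letters and not evidence of binding. Cnn1 and Tpm2 held neither exact match in this window.

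The libraries held 6695 to 13411 cells of at least 1000 UMIs. The median was 9600 and 11146 UMIs per cell in the non-efferocytic libraries and 17171 and 17476 in the efferocytic ones. The cell calling rule of Cell Ranger was stricter, and kept 10615 of the 13411 cells of the non-efferocytic library of Experiment 2. In the non-efferocytic library of Experiment 1 it kept 7549 of 8280. Under it no log2 fold change of the 9 genes moved beyond the spread between the experiments. Between the libraries of Experiment 2, 118 cell barcodes were shared where 16.6 were expected from the cell numbers and the list of barcodes in use, against 15 and 8.16 in Experiment 1. Leaving these barcodes out moved no log2 fold change of the 9 genes beyond the spread between the experiments (Thbs1 −2.91 and Tagln −3.00 without them). F4/80 (Adgre1) was at 366 ± 22 CPM (UMIs per 1000000 UMIs of the library, SD, n = 2) in efferocytic and 513 ± 17 CPM in non-efferocytic libraries, and all 11 macrophage markers were present in each library. Of the markers of other sources, Emcn, of endothelium, had 0 UMIs in all 4 libraries, and the whole list of 6 endothelial markers summed to 3.21 and 5.23 CPM in Experiment 1 and 1.83 and 6.58 CPM in Experiment 2 (non-efferocytic first), higher in both efferocytic libraries. Neutrophil lineage markers were lower in both, at 3067 and 959 CPM in Experiment 1 and 3378 and 718 CPM in Experiment 2, and all 9 were present in each library. Epithelial markers, which RM1 cells could carry, summed to 0.534 and 0.112 CPM in Experiment 1 and to 10.2 and 8.48 CPM in Experiment 2. The paper lists RM1 as fibroblast-like, so RM1 RNA need not show in epithelial markers. The part of these other sources and of RM1 RNA in the results was not tested.

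In a sum over cells, fewer cells with a transcript and less transcript in each cell cannot be told apart, and the sums are given first. The 3 matricellular genes were lower in the efferocytic library of each experiment. Thbs1 was at 95.2 CPM in the non-efferocytic and 12.3 CPM in the efferocytic library of Experiment 1, and at 76.2 and 9.17 CPM in Experiment 2. The groups thus lay far apart, at 85.7 ± 13.4 against 10.7 ± 2.2 CPM (SD, n = 2 libraries each), with efferocytic levels 7.76-fold lower in Experiment 1 and 8.31-fold lower in Experiment 2. Ctgf, a much rarer transcript counted as 890, 90, 1097 and 106 UMIs, was at 8.79 and 0.720 CPM in Experiment 1 and 7.93 and 0.683 CPM in Experiment 2. These levels were 12.2-fold and 11.6-fold apart, the widest gap among the matricellular genes. Cyr61 went from 5.45 to 1.03 CPM in Experiment 1 and from 3.31 to 0.329 CPM in Experiment 2, with a fold that differed between the experiments (5.28 and 10.1).

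The contractile genes were likewise lower in both efferocytic libraries, although by very different amounts. Tagln, which encodes the actin-bundling protein transgelin, was at 35 and 3.06 CPM in Experiment 1 and at 32.8 and 4.93 CPM in Experiment 2. Acta2, smooth muscle alpha-actin, was at 52.9 and 8.28 CPM and then at 55.9 and 12.6 CPM. Cnn1, calponin, was close to the limit of counting, with 78, 12, 77 and 17 UMIs in the order of the libraries (non-efferocytic and efferocytic of Experiment 1, then of Experiment 2), or 0.771, 0.0960, 0.557 and 0.110 CPM. In each, both efferocytic values lay below both non-efferocytic ones, the direction the genes were selected for. Myl9, the regulatory light chain of smooth muscle myosin, was at 10.6, 1.78, 8.98 and 2.36 CPM, and Tpm2, a tropomyosin, at 17.1, 4.15, 17.5 and 5.77 CPM, again in that order. Tpm1, the other tropomyosin, stood apart with 69.9, 50.7, 69.5 and 53.8 CPM, so that the efferocytic libraries kept 72.5% and 77.5% of the non-efferocytic level.

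On the fitted scale the log2 fold change was −2.90 for Thbs1, −3.47 for Ctgf, −2.70 for Cyr61, −3.00 for Tagln, −2.30 for Acta2, −2.13 for Myl9, −1.71 for Tpm2, −2.54 for Cnn1 and −0.31 for Tpm1. The value lay below −1 for 8 of the 9 genes, beside 9.37% of all genes fitted, but the genes were selected on this contrast and nothing is read from the count. Their median was −2.54, beside −0.02 over all genes. The direction of Tpm1 depended on the scaling: efferocytic cells held more UMIs each, and counted per cell rather than as CPM Tpm1 was higher in efferocytic cells (log2 0.31). That scaling moved the median of all genes to 0.60, so that Tpm1 lay below the median of all genes on both scales, and scaling by library totals moved it to −0.12.

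**Figure D1:**
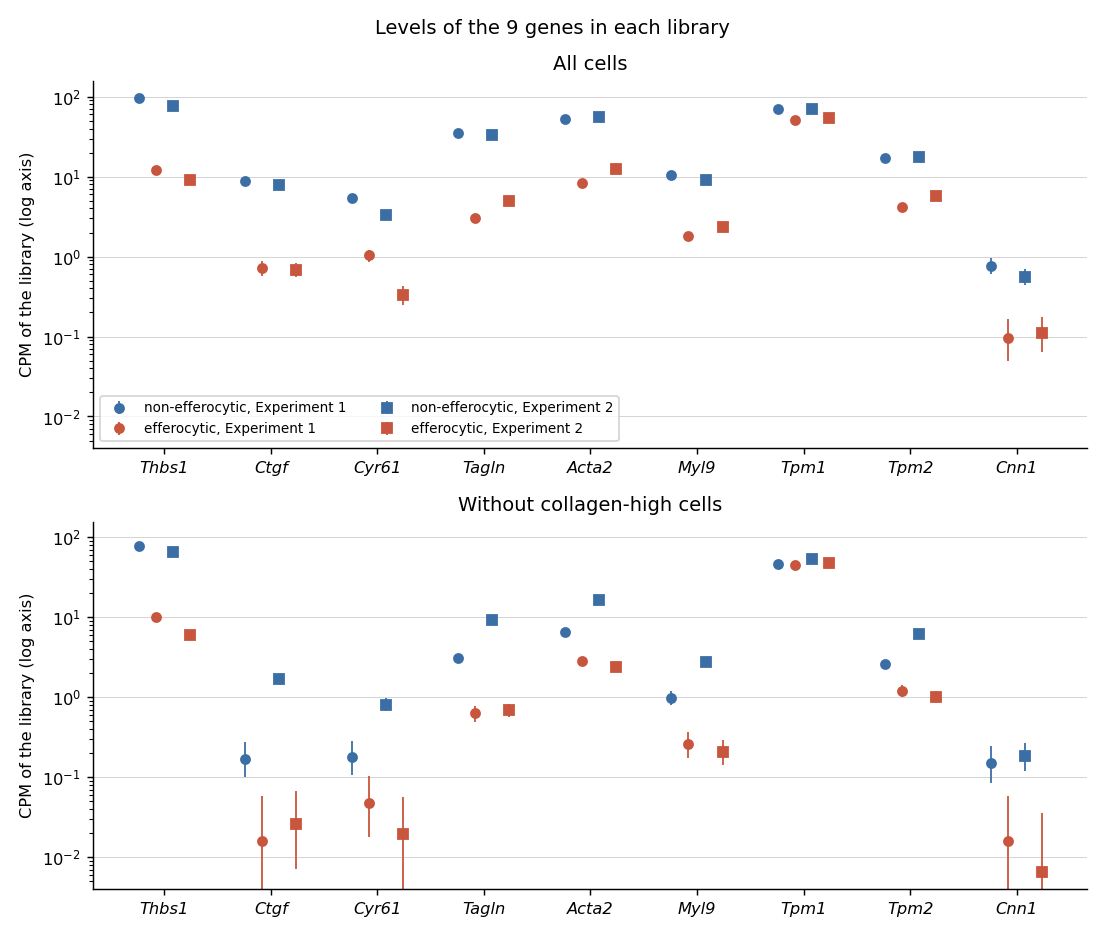
Levels of the 9 genes in each library as CPM on a log axis, over all cells (upper panel) and without collagen-high cells (lower panel), with blue for non-efferocytic and red for efferocytic libraries, circles for Experiment 1 and squares for Experiment 2. Bars are exact 95% Poisson intervals, for counting error only. Over all cells each efferocytic point lies below both non-efferocytic points, the direction the genes were selected for. The gap is least for Tpm1, whose direction turns when counted per cell, a scaling that moves the median of all genes to 0.60 (log2). Without collagen-high cells the Tpm1 points lie between 45.3 and 54.2 CPM. Intervals that reach below the axis are cut off.

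Most UMIs of 7 of the 9 genes lay in very few cells. Collagen-high cells were 34, 16, 60 and 25 in number, or 0.411%, 0.239%, 0.447% and 0.297% of the cells (in the order of the libraries above), lower in the efferocytic library of both experiments. The exact 95% binomial intervals, which cover counting error only and compare libraries, were 0.285% to 0.573% and 0.137% to 0.388% in Experiment 1 and 0.342% to 0.576% and 0.193% to 0.439% in Experiment 2. Collagen-high cells held 1.38%, 0.478%, 0.982% and 0.579% of the UMIs. Their median size of 21239 to 40536 UMIs was above that of all cells in each library. All 8 fibroblast markers were present among them, summing to 8637 to 10314 CPM, while the 11 macrophage markers summed to 4661 to 9526 CPM against 25154 to 41364 CPM over all cells. The fibroblast list holds Col1a1, Col1a2 and Col3a1, which chose these cells, so most of its sum was set by the definition. Neutrophil lineage markers summed to 5582 CPM in the collagen-high cells of the non-efferocytic library of Experiment 1, where 1 cell held both marks, and to 7.78 to 36.8 CPM in the other 3. Of 7 smooth muscle and pericyte markers 4 to 6 were present in them, at 75.2 to 361 CPM in sum, and over all cells Myh11, smooth muscle myosin, had 0 UMIs in both efferocytic libraries and Rgs5, a pericyte gene, in the non-efferocytic library of Experiment 1 and the efferocytic library of Experiment 2.

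Ctgf was the most concentrated gene, with 98.1% and 97.8% of its UMIs in the collagen-high cells of the non-efferocytic and efferocytic libraries of Experiment 1 and 78.8% and 96.2% in Experiment 2. Cyr61 was similar, at 96.7%, 95.3%, 75.8% and 94.1%. Tagln had 91.3%, 79.6%, 71.8% and 86.1% of its UMIs there. For Acta2, Myl9, Tpm2 and Cnn1 the shares lay between 64.4% and 94.1%. The non-efferocytic library of Experiment 2 had the lowest share of the 4 libraries for Ctgf, Cyr61, Tagln, Myl9, Tpm2 and Cnn1. By contrast, Thbs1 had 20.1%, 18.6%, 14.7% and 35.2% of its UMIs in collagen-high cells, and Tpm1 had 35.1%, 11.1%, 22.8% and 10.8%. Most Thbs1 and Tpm1 UMIs therefore lay outside the collagen-high cells, where F4/80 was at 517 ± 18 CPM in non-efferocytic and 367 ± 22 CPM in efferocytic libraries (SD, n = 2).

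The limit of 10 collagen UMIs mattered most in the non-efferocytic library of Experiment 2, where 155 cells passed a limit of 3, 60 a limit of 10 and 41 a limit of 30. Cells with 3 to 9 collagen UMIs numbered 6, 6, 95 and 4 in the order of the libraries, and cells with 10 to 29 numbered 4, 2, 19 and 4. With a limit of 3 UMIs the Tagln share became 91.3%, 80.6%, 74.2% and 86.8%, and with a limit of 30 it became 91.3%, 79.6%, 71.0% and 86.1%.

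**Figure D2:**
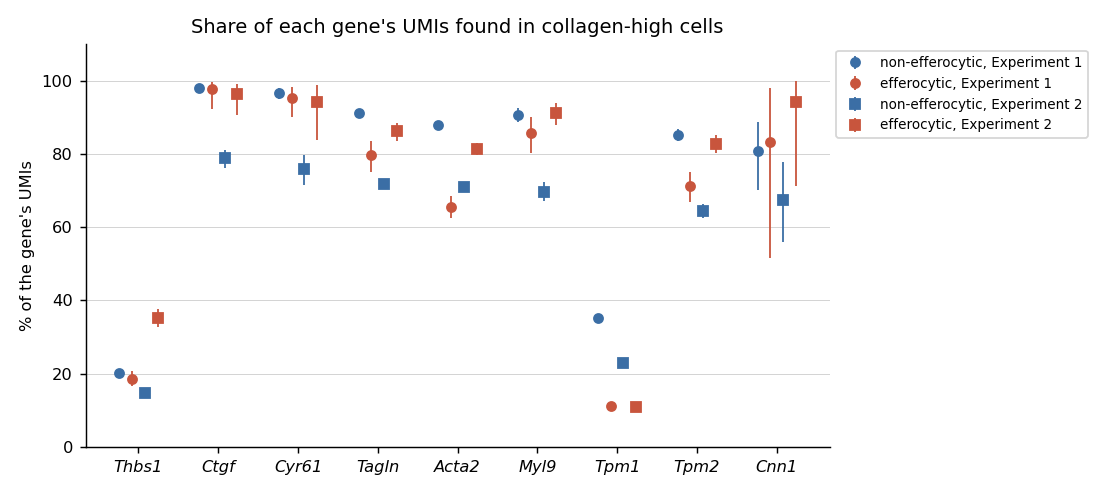
Percent of the UMIs of each gene that lay in collagen-high cells, with 1 point per library (blue non-efferocytic, red efferocytic, circles Experiment 1, squares Experiment 2) and exact 95% binomial intervals for counting error only. The other 7 genes lie between 64.4% and 98.1%, whereas Thbs1 and Tpm1 lie between 10.8% and 35.2%.

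Thbs1 was also lower outside the collagen-high cells. Without the collagen-high cells it was at 77.1 and 10.0 CPM in Experiment 1 and at 65.7 and 5.97 CPM in Experiment 2. Neutrophil-marker cells, defined by 10 or more UMIs of granule genes such as Ngp and Mpo, were another rich source, with 75, 25, 124 and 23 cells in the order of the libraries. They had been meant as cells that lack the 9 genes, but Thbs1 was at 894 and 796 CPM in them in Experiment 1 and at 525 and 613 CPM in Experiment 2. There it was lower in the efferocytic library of Experiment 1 and higher in that of Experiment 2. In the cells that were neither collagen-high nor neutrophil-marker, Thbs1 was at 62.3 ± 5.5 CPM in non-efferocytic and 5.50 ± 2.0 CPM in efferocytic libraries (SD, n = 2), a ratio of 9.54 in Experiment 1 and 14.4 in Experiment 2. These other cells held 69.4% and 78.8% of the whole difference in Thbs1, collagen-high cells 20.3% and 11.9%, and neutrophil-marker cells 10.3% and 9.25%.

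The share of cells with a Thbs1 UMI was lower as well. Thbs1 was detected in 25% and 5.87% of all cells in Experiment 1 and in 21.2% and 3.68% in Experiment 2. When each cell was thinned to 2000 UMIs, which left out 437, 269, 2226 and 329 shallower cells, the shares were 10.6%, 1.56%, 9.47% and 1.06%. In neutrophil-marker cells the thinned shares were 73.3%, 76.0%, 57.1% and 65.2%, so that the efferocytic libraries of both experiments still held cells rich in the transcript. Those cells had median depths of 15957, 17156, 15973 and 20526 UMIs, near or above those of the other cells (11106, 17163, 9545 and 17446).

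The cells of each experiment were clustered without the 9 genes, and clusters with at least 20 cells of each group were compared, which is a description since efferocytic and non-efferocytic cells mostly fell into different clusters. Thbs1 was lower in the efferocytic cells of 9 of 9 such clusters in Experiment 1 and of 11 of 13 in Experiment 2, where 1 was higher and 1 had no UMI. This is the direction it was selected for, and some clusters held few UMIs. In Experiment 1 cluster 7 had 3 and 0 UMIs, and cluster 3 had 14 and 7, at 16.8 and 14.8 CPM. In Experiment 2 cluster 9 had 18 and 3 UMIs. In the large cluster 0 of Experiment 1, led by Cdkn1c, Fabp4 and Arg1, Thbs1 was at 25.5 CPM in 343 non-efferocytic and 5.82 CPM in 5115 efferocytic cells. In cluster 1 of the same experiment, led by Gpr34 and Ier3, it was at 89.9 CPM in 4478 non-efferocytic and 24.4 CPM in 235 efferocytic cells. Both parts of the difference were measured, a lower level within clusters and fewer efferocytic cells in the clusters of high level. The cluster that was higher was the one of neutrophil-marker cells in Experiment 2, at 543 and 613 CPM.

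Tpm1 differed mainly through the collagen-high cells. Without them it was at 46.0 and 45.3 CPM in Experiment 1 and at 54.2 and 48.3 CPM in Experiment 2, or 50.1 ± 5.7 against 46.8 ± 2.1 CPM (SD, n = 2). Tpm1 was thus still lower in the efferocytic library of both experiments, by less than the non-efferocytic libraries differed from each other. The fitted log2 fold change then was −0.01. Collagen-high cells held 98.3% of the Tpm1 difference in Experiment 1 and 64.0% in Experiment 2. The share of all cells with a Tpm1 UMI was higher in efferocytic libraries, 35.4% and 46.3% in Experiment 1 and 36.6% and 51.0% in Experiment 2, but after thinning to 2000 UMIs it was 8.31%, 8.45%, 10.2% and 9.05%, a little higher in Experiment 1 and lower in Experiment 2 at equal depth. Within clusters Tpm1 was lower in efferocytic cells in 6 of 9 clusters of Experiment 1 and 10 of 13 of Experiment 2.

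**Figure D3:**
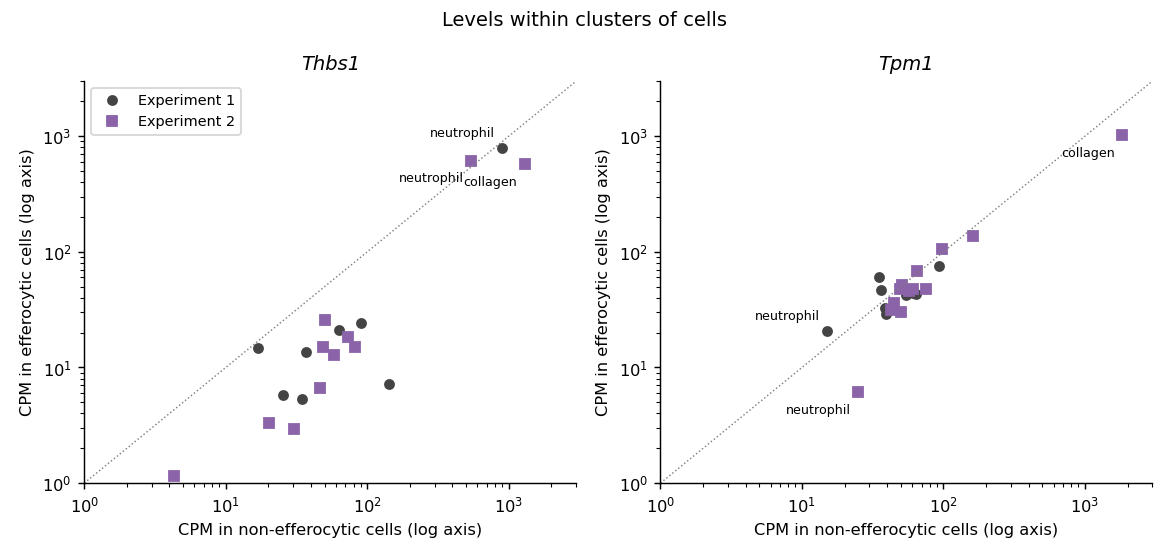
CPM of Thbs1 (left) and Tpm1 (right) in the efferocytic cells of a cluster against its non-efferocytic cells, on log axes, with 1 point per cluster that had at least 20 cells of each group and UMIs in both (circles Experiment 1, squares Experiment 2). The dotted line marks equal levels. Thbs1 points lie below the line except for the neutrophil-marker cluster of Experiment 2 (543 and 613 CPM), while Tpm1 points lie on both sides of it. The collagen-high cluster of Experiment 1 is not drawn because it had 14 efferocytic cells.

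Of the other 7 genes, Ctgf, Cyr61 and Cnn1 had few UMIs once the collagen-high cells were left out. Ctgf then had 17 and 2 UMIs in Experiment 1 and 233 and 4 UMIs in Experiment 2. Cyr61 had 18, 6, 111 and 3 UMIs, and Cnn1 had 15, 2, 25 and 1. These counts were too low for folds of any precision in the efferocytic libraries. Tagln stood at 3.1 and 0.627 CPM in Experiment 1 and at 9.33 and 0.687 CPM in Experiment 2, and Acta2 at 6.56, 2.87, 16.4 and 2.37 CPM. The non-efferocytic library of Experiment 2 was the highest for all 7 genes, and Col1a1 outside collagen-high cells was highest there too, at 7.35 CPM against 1.36 CPM in the other non-efferocytic library and 0.514 and 0.505 CPM in the efferocytic ones. In this library Tagln was at 129 CPM in the 1668 cells of cluster 3, of few UMIs per cell (median of 1178 over the cluster), and at 9.67 CPM in the 4641 cells of cluster 1. Cluster 3 was led by Igkc, Krt18 and Ighg2b, and its level includes collagen-high cells, 18 over both libraries. The same library had 31159564 UMIs in barcodes of over 100 but under 1000 UMIs, which are below the limit for cells, against 8404248 to 11328453 in the other 3, and Tagln was at 105 CPM in those barcodes against 9.76 to 36.5 CPM. The part of this low-count RNA in the values of that library was not tested. Without thinning, a Tagln UMI was found in 2.79% and 0.947% of the cells that were neither collagen-high nor neutrophil-marker in Experiment 1 and in 7.48% and 0.909% in Experiment 2, and after thinning in 0.504%, 0.125%, 1.78% and 0.149%. In neutrophil-marker cells the unthinned shares were 1.33%, 0%, 4.03% and 0%, and after thinning 0 of 75, 0 of 25, 0 of 119 and 0 of 23 cells had a UMI. At the thinned depth alone, this allows shares of up to 4.0%, 12%, 2.52% and 13.0% for counting error only. These cells were too few to set the level that free RNA gives.

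Within the collagen-high cells, the same 9 genes were lower in efferocytic libraries, while Col1a1 differed by less and Col3a1 was higher. These cells did not all fall into 1 cluster of their experiment. Clusters made only of collagen-high cells held 30, 14, 37 and 21 of them in the order of the libraries. Tagln was at 2442, 511, 2800 and 756 CPM in those clusters. Ctgf was at 625 and 147 CPM within the collagen-high cells of Experiment 1 and at 636 and 113 CPM in those of Experiment 2, 4.25-fold and 5.61-fold apart. Tagln was at 2314, 508, 2396 and 733 CPM, Acta2 at 3364, 1134, 4030 and 1772 CPM, and Thbs1 at 1387, 478, 1142 and 557 CPM. In each of these the efferocytic cells of both experiments lay below the non-efferocytic cells. Col1a1 was at 4811, 3928, 4102 and 3045 CPM and Col3a1 at 1156, 1726, 1484 and 1717 CPM. Collagen UMIs chose these cells, so the collagen levels are a description as well. Cyr61 differed between the efferocytic libraries by more than the other genes did, at 383, 206, 255 and 53.4 CPM. Myl9 (694, 319, 637 and 372 CPM), Tpm2 (1057, 617, 1147 and 825 CPM), Tpm1 (1779, 1177, 1612 and 1003 CPM) and Cnn1 (45.1, 16.7, 38.3 and 17.8 CPM) followed the same order.

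Set against collagen from the same cells, there were 22.9 Tagln UMIs per 100 UMIs of the 3 collagens in non-efferocytic and 5.50 in efferocytic collagen-high cells of Experiment 1, and 24.2 and 9.0 in Experiment 2. For Ctgf the ratios were 6.18 and 1.59, and 6.42 and 1.39. For Tpm2 they were 10.5 and 6.67, and 11.6 and 10.1. The selection of the 9 genes bears on these ratios as well. The summed macrophage markers also differed within these cells, at 9526 and 6493 CPM in Experiment 1 and 8733 and 4661 CPM in Experiment 2, as they did over all cells (41364, 33088, 35615 and 25154 CPM), and their part in the result was not tested.

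Single collagen-high cells varied widely. The median cell had 1795 and 404 CPM of Tagln in Experiment 1 and 870 and 356 CPM in Experiment 2, with highest values of 6352, 1505, 9074 and 2983 CPM. No Tagln UMI was found in 4 of 34, 5 of 16, 16 of 60 and 6 of 25 cells. The range thus overlapped between the groups although the medians did not. In the clusters made only of collagen-high cells, a Tagln UMI was found in 100%, 78.6%, 97.3% and 90.5% of the cells. Of the collagen-high cells outside them, 18 lay in cluster 3 of Experiment 2, whose median was 1178 UMIs. The part of depth in the cells without a UMI was not tested. For Ctgf the median cell had 88.2, 23.2, 176 and 0 CPM, and 8 of 34, 6 of 16, 22 of 60 and 17 of 25 cells had none. Ctgf was therefore uneven even within collagen-high cells, and in the clusters made only of them it was found in 86.7%, 71.4%, 78.4% and 38.1%. Tpm1 was found in almost all of them, with medians of 1313, 1008, 1377 and 639 CPM and 2, 0, 8 and 1 cells without a UMI.

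**Figure D4:**
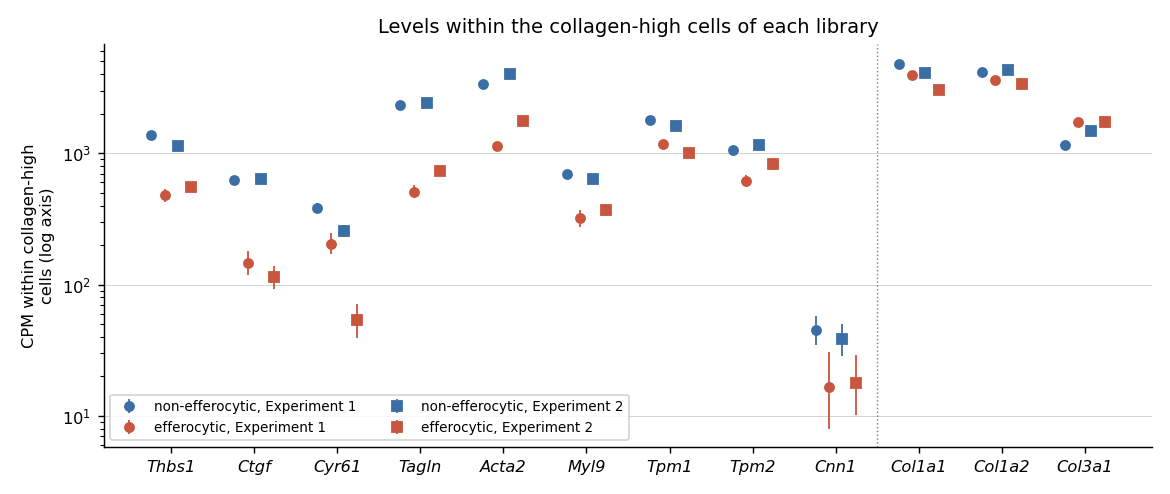
CPM of the 9 genes and of the 3 collagens used to choose the cells (right of the dotted line) within the collagen-high cells of each library, on a log axis, with exact 95% Poisson intervals for counting error only (blue non-efferocytic, red efferocytic, circles Experiment 1, squares Experiment 2; 34, 16, 60 and 25 cells). The 9 genes lie lower in both efferocytic libraries, the direction they were selected for, and Col3a1 lies higher.

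Over 39 strata of cluster and library with at least 50 cells, the genes whose log2 levels followed a member most closely were named among 11395 genes whose mean was 1 CPM or more. Strata of 1 library share its depth and free RNA, and the values are a description. The strata span both groups, so the contrast on which the 9 genes were selected enters the likeness between them. The clusters made only of collagen-high cells were too small to enter, but other collagen-high cells did enter, 18 of them in cluster 3 of Experiment 2. In the non-efferocytic cells of that cluster Tagln was at 129, Ctgf at 33.6 and Col1a1 at 147 CPM. In those of cluster 1 they were at 9.67, 1.68 and 7.59 CPM. The part of such strata in the likeness was not tested. Tagln was most like Myl9 (Pearson r = 0.963), Tpm2 (0.936), Acta2 (0.933), Col1a1 (0.932) and Fn1 (0.915), so 3 of its nearest genes were other members. Ctgf was most like Col6a1 (0.930), Col1a1 (0.929), Col3a1 (0.914), Fn1 (0.889) and Col5a2 (0.883), all matrix genes. None of the 9 genes was among the 5 nearest to Thbs1, which were Prdx5 (0.853), Ncf1 (0.841), Pilrb2 (0.825), Arap3 (0.820) and Tifab (0.819), among which Ncf1 encodes a subunit of the phagocyte NADPH oxidase and Prdx5 a peroxiredoxin.

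For comparison, 6 lists of related genes, without the 9 genes, were tested across all 13869 genes with edgeR's quasi-likelihood test with the experiment as a block, of which 19.0% were called lower and 19.9% higher in efferocytic libraries (Benjamini-Hochberg adjusted p under 0.05). Of 28 contractile and SRF-MRTF genes tested, 12 were called lower and 7 higher, with a median log2 fold change of −0.26 beside −0.02 over all genes. Actg2, enteric smooth muscle actin, fell from 3.31 ± 0.40 to 0.357 ± 0.13 CPM (SD, n = 2; log2 fold change −3.11 ± 0.19 SE, adjusted p = 5.8e-05). Mylk, myosin light chain kinase, fell from 2.42 ± 0.094 to 0.573 ± 0.17 CPM (−1.98 ± 0.20, adjusted p = 0.00036), and Fhl2, a LIM-domain cofactor, fell by 1.76 on the log2 scale (SE 0.20, adjusted p = 0.00061). All 3 had 79.8% to 82.8% of their UMIs in collagen-high cells. The 7 genes called higher, among them Tagln2 (0.74), the SRF coactivator gene Mkl2 (0.66), Itga5 (0.56) and Flna (0.32), had 0.434% to 4.02% of their UMIs there, and the gene of SRF itself was not called (0.04 ± 0.08). The 12 genes called lower ranged from 1.56% to 82.8%, with a median of 75.6% and 7 of 12 above 50%, and the lowest was Zyx, which encodes a focal adhesion protein.

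Of 24 YAP-TEAD targets and factors tested, edgeR called 17 lower and 0 higher, with a median of −0.90. Many were rare, and the low-count filter can pass a gene on the libraries of 1 group alone. With a mean of at least 1 CPM 11 were tested, 7 were called lower and 0 higher, and the median was −0.43. Of all 10813 genes tested under that limit 2081 were called lower. At an unadjusted p under 0.05 edgeR had 1 higher, and DESeq2 called 10 lower and 0 higher. Tgfb2, a TGF-beta ligand, fell from 2.46 ± 0.26 to 0.516 ± 0.063 CPM (SD, n = 2; −2.13 ± 0.19 SE, adjusted p = 0.00019) and had 84.6% of its UMIs in collagen-high cells. Crim1 (−0.76 ± 0.12, adjusted p = 0.0025) and Axl, a receptor for apoptotic cells (−0.62 ± 0.11, adjusted p = 0.0043), fell less and had 12.6% and 7.81% there. The genes of YAP and TAZ, Yap1 and Wwtr1, were called lower with 0.561 ± 0.025 and 0.476 ± 0.081 CPM in non-efferocytic libraries, and 77.1% and 79.4% of their UMIs lay in collagen-high cells.

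Of 25 genes of the TGF-beta pathway edgeR called 11 lower and 0 higher (0 higher also at an unadjusted p under 0.05 and by DESeq2), with a median of −0.37. Tgfb3, another ligand, fell from 1.82 ± 0.022 to 0.359 ± 0.11 CPM (−2.24 ± 0.22 SE, adjusted p = 0.00031), and Id3, a target of SMAD proteins, from 12.3 ± 6.2 to 3.14 ± 1.5 CPM (−1.85 ± 0.11, adjusted p = 4.8e-05). Tgfbi, a secreted target, fell from 133 ± 20 to 52.5 ± 25 CPM (SD, n = 2; −1.31 ± 0.14, adjusted p = 0.00043) with only 0.448% of its UMIs in collagen-high cells. Of 30 fibroblast matrix genes edgeR called 25 lower and 0 higher (0 higher also at an unadjusted p under 0.05 and by DESeq2), with a median of −1.12, and the 25 had 78.5% to 93.1% of their UMIs in collagen-high cells. The list holds Col1a1, Col1a2 and Col3a1, which define those cells, so the shares of these 3 were set by the definition. Among them were Lox, an enzyme that crosslinks collagen (−1.97 ± 0.25, adjusted p = 0.00098), Cxcl12, a stromal chemokine (−1.93 ± 0.23, adjusted p = 0.00065), and the collagen gene Col5a1 (−1.56 ± 0.17, adjusted p = 0.0005).

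Of 21 muscle and non-muscle paralogs tested 7 were called lower and 4 higher, with a median of 0.09. Beside Actg2, Cnn3 (−1.68 ± 0.16, adjusted p = 0.00029) and Thbs2 (−1.14 ± 0.17, adjusted p = 0.0018) fell, with 81.0% and 87.2% of their UMIs in collagen-high cells. The broadly expressed Tpm4 (0.46), Myl6 (0.45) and Tagln2 were called higher, and Actb (0.13 ± 0.18) and Actg1 (0.19 ± 0.14) were not called. Of 16 receptors of thrombospondins and CCN proteins 2 were called lower and 6 higher. Cd36, a scavenger receptor that binds thrombospondin 1, rose from 516 ± 57 to 1554 ± 163 CPM (SD, n = 2; 1.70 ± 0.12 SE, adjusted p = 9.4e-05), Calr from 196 ± 16 to 518 ± 1.6 CPM (1.51 ± 0.10, adjusted p = 7.2e-05) and Itgav from 30.2 ± 4.9 to 52.5 ± 6.0 CPM (0.91 ± 0.07, adjusted p = 0.00015). Cd47 was not called (0.09 ± 0.10).

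Without the collagen-high cells, where 18.9% of 13437 genes were called lower and 19.6% higher, 9 contractile genes of 25 were called lower and 9 higher, 10 of 21 YAP-TEAD genes, 9 of 24 TGF-beta genes and 22 of 25 matrix genes (the 3 collagens that chose the cells left out among them) were called lower, 4 of 19 paralogs were called lower and 4 higher, and 6 of 16 receptors were called higher and 3 lower. The named matrix genes were low there. In the order of the libraries, Col5a1 was at 0.110, 0.024, 0.796 and 0.084 CPM and Cxcl12 at 0.701, 0.161, 3.74 and 0.253 CPM. Lox was at 0.812, 0.330, 1.80 and 0.305 CPM. Each was highest in the non-efferocytic library of Experiment 2, which held the most low-count RNA, whose part was not tested. Over all cells, the calls of the 6 lists together numbered 71 lower and 15 higher. Without the non-efferocytic library of Experiment 1 edgeR called 2 of 14207 genes lower and 0 higher, and without that of Experiment 2 it called 0 of 14036 in either direction, so that nearly every call over all genes was lost. In those fits 0 of the list genes were called, with 55 and 61 lower and 10 and 12 higher at an unadjusted p under 0.05. Without the efferocytic library of Experiment 2 the counts were 43 and 5, and without that of Experiment 1 they were 55 and 11. Scaled by UMIs per cell, 586 of all genes were called lower and 6921 higher, and by library totals 3700 and 1847. With 10% of UMIs removed as free RNA, an assumed share, fewer genes were called. Those called lower fell in number to 5 contractile, 3 YAP-TEAD, 6 TGF-beta, 1 paralog and 4 matrix genes, beside 1015 of all genes. Those called higher fell to 3 contractile genes and 2 paralogs. With no replicate block 8 YAP-TEAD genes, 6 TGF-beta genes and 4 paralogs were called lower, beside 1073 of all genes, and 2 contractile genes and 1 paralog higher, so that most of the higher calls in these lists were lost. By UMIs per cell the contractile list had 7 lower and 11 higher, YAP-TEAD 7 and 3, TGF-beta 6 and 6, paralogs 3 and 10, receptors 0 and 11 and matrix genes 10 and 0. By library totals the contractile list had 14 lower and 5 higher and the receptors 5 and 5.

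**Figure D5:**
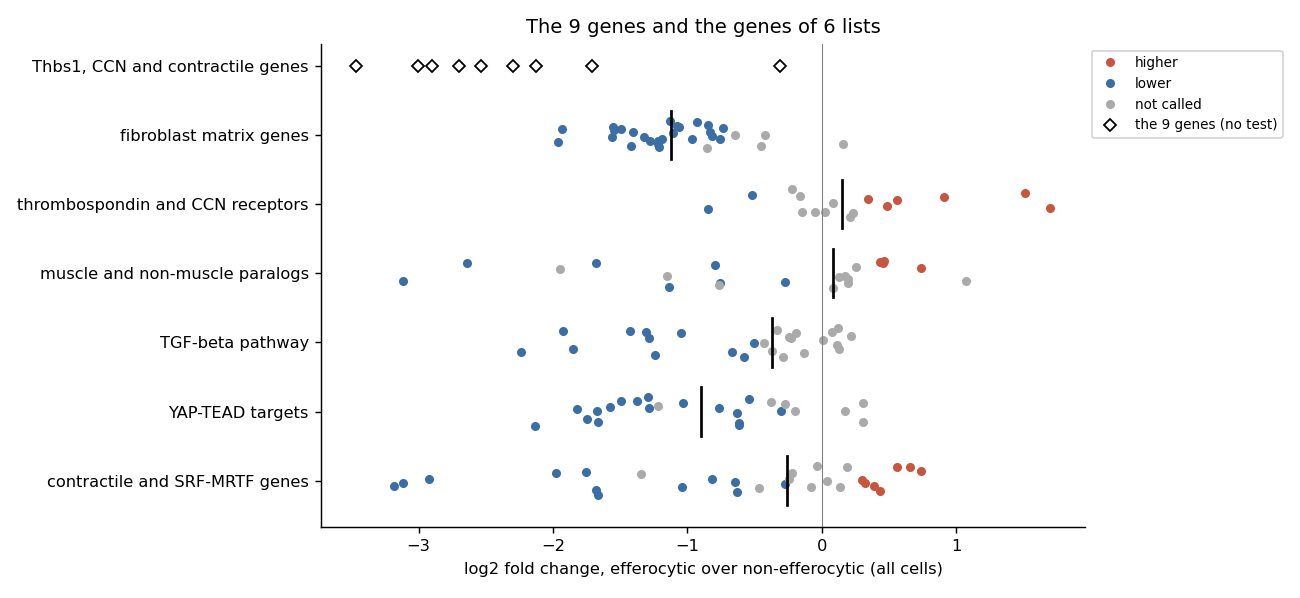
Log2 fold change of efferocytic over non-efferocytic libraries for the tested genes of 6 lists, with 1 point per gene, blue for genes called lower, red for genes called higher and grey for genes not called by edgeR, and a black line at the median of each list. Open diamonds show the 9 genes, for which no test is given. Matrix genes lie mostly below 0 (median −1.12) and receptors on both sides of it (median 0.15).

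Transcripts of these genes were also counted outside cells. In barcodes of 1 to 100 UMIs, too few for a cell, Ctgf was at 63.7 and 76.8 CPM in Experiment 1 and at 6.96 and 1.92 CPM in Experiment 2. Cyr61 was at 116 and 139 CPM in Experiment 1 and at 6.54 and 3.14 CPM in Experiment 2. Both were far above their level over cells in Experiment 1, in the efferocytic as in the non-efferocytic library. Tagln was at 61.6, 50.8, 28.0 and 6.29 CPM and Thbs1 at 73.0, 38.7, 115 and 95.9 CPM in these barcodes. The share of free RNA in the cells was not measured. When an assumed 10% of the UMIs of each library was removed with the makeup of these barcodes, 7 of the 9 genes were left with 0 UMIs in at least 1 library. In the non-efferocytic library of Experiment 1 this took Ctgf from 890 to 246 UMIs, although 873 of the 890 lay in collagen-high cells. More was thus removed than was counted outside those cells, so no fold is given and the zeros are not read as a result. Thbs1 was left with 8898 and 1051 UMIs in Experiment 1 and with 8957 and 0 in Experiment 2, and Tagln with 2916 and 0, and 4146 and 667.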

How the data were processed

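UMI counts per gene and barcode were deposited by the authors as 1 raw 10X matrix per library, made with Cell Ranger (version 3.0.0 in the submitters' processing notes, 3.0.0 in the file headers of Experiment 1 and 3.1.0 in those of Experiment 2) on mm10. The notes also name Seurat 3.1. From these counts, cells were barcodes with at least 200 genes, 1000 UMIs and at most 10% mitochondrial UMIs. Counts were summed per library and given as CPM, or fitted with edgeR 4.0.16 (R 4.3.3; TMM scaling, filterByExpr, quasi-likelihood test, experiment as a block, 1 residual degree of freedom, Benjamini-Hochberg adjustment). The SE is the log2 fold change divided by the root of F. The libraries of an experiment deviated together (r = 0.62 across 10813 genes, 2 pairs), and genes are not independent replicates. Intervals are exact and cover counting error only.

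Neutrophil-marker cells held 10 or more UMIs of Ngp, Camp, Ltf, Elane, Mpo and Prtn3. Thinning drew 2000 UMIs per cell without replacement. Clusters were made per experiment without the 9 genes (scanpy 1.11.5, leidenalg 0.10.2; 5000 variable genes, 20 components, 20 neighbors, resolution 0.5). Doublets were kept, and an alternative removed the 5% of cells with the highest doublet scores. Further alternatives changed the cell limits, free RNA, scaling, low-count filter, block and test (DESeq2 1.42.0), and left out each library. Fits without barcodes shared in an experiment and without neutrophil-marker cells were added after seeing the data.

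The 9 genes and the lists were chosen with earlier results of these data known. Named list genes were the 3 of each list with the largest absolute log2 fold change among called genes whose mean was 1 CPM or more and whose sign was shared by the experiments. Other list genes named in the text (such as Yap1, Wwtr1, Actb, Cd47, Tpm4, Myl6, Tagln2 and Zyx) were chosen after their values were seen. The edgeR fit was tested on simulated counts with known changes.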

Additional observations from a re-analysis of the deposited data

Results flagged for a closer look

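In neutrophil-marker cells the log2 ratio of Thbs1, efferocytic over non-efferocytic, was −0.17 in Experiment 1 and 0.22 in Experiment 2, so the libraries of the experiments moved in opposite directions, and this difference was not tested. Cyr61 was at 139 CPM in the barcodes of 1 to 100 UMIs of the efferocytic library of Experiment 1, barcodes used in no comparison of cells, which was above the 116 CPM of the non-efferocytic library of that experiment.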

How the results depend on the processing

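Under 19 alternatives, 121 of the log2 fold changes of the 9 genes stayed within the spread between the experiments, 47 moved further and 1 turned, that of Tpm1 when scaled by UMIs per cell (0.31). All genes called lower numbered 2636, and 1015 with 10% free RNA removed, 586 by UMIs per cell, 1417 with DESeq2, 1073 with no replicate block and 0 to 1275 leaving out each library. Those called higher numbered 2761, and 1324 with free RNA removed, 6921 by UMIs per cell, 1285 with no replicate block and 0 to 1658 leaving out each library. Of the list genes, 71 were called lower, and 20 with free RNA removed, 31 by UMIs per cell, 49 with no replicate block and 0 to 55 leaving out each library (0 to 43 among those beyond 1.5 times). Those called higher numbered 15, and 8 with free RNA removed, 39 by UMIs per cell, 7 with no replicate block and 0 to 11 leaving out each library (0 to 5). The causes were not tested. A library left alone in its group was assumed to vary like the others, and these fits had no block. With 10% free RNA removed, an assumed share that was not measured, 7 of the 9 genes had 0 UMIs in a library and Cyr61 could not be fitted. Cnn1 had no value with a mean of at least 1 CPM. Cnn1, Ctgf and Cyr61 had too few UMIs outside collagen-high cells for precise folds.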
